A study of Rattus norvegicus with 4 samples.

Results

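The genes described here are receptors, and close relatives of receptors, by which myeloid cells (monocytes, macrophages, microglia and neutrophils) sense sugars, antibodies, lipids, sialic acids and dying cells. They were taken by name from the deposited table: every gene whose symbol starts with Clec and a digit, Fcgr, Fcer, Cd300, Lilr, Siglec, Trem, Ms4a or Pilr, and Cd14, Msr1, Marco, Cd36, Cd33, Sirpa, Mrc1, Mertk and Axl. This gave 75 of the 17853 genes of the table, in 8 classes: 27 C-type lectins, 5 Fc receptors, 6 genes of the Cd300 family, 5 Lilr and Pilr genes, 7 Siglecs with Cd33, 5 Trem genes, 12 Ms4a genes and 8 scavenger and engulfment receptors. The libraries held polyadenylated RNA from the brains of rats, all with intracerebral hemorrhage, in which a vessel bleeds within the brain. They came from the side of the bleeding (ipsilateral) and the opposite side (contralateral) at 21 months of age, called old, and from the same sides at 13 months, called adult. Each of the 4 groups had 1 library. Per the labels' protocols, RNA of 9 rat brains was pooled in equal amounts; it is not stated how many went into each library or whether both sides came from the same rats. The baseline is the contralateral side of an injured brain; no uninjured brain was analysed here. Strain, sex, hemorrhage model and time after the bleeding are not stated in the labels.

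Many of these receptors work in pairs of opposite sign. Activating ones, such as the Fc receptors for antibodies, Trem1 or Clec4e, carry or borrow a tyrosine motif called ITAM, often through the adapters Fcer1g or Tyrobp, and recruit the kinase Syk. Inhibitory ones, such as Fcgr2b, Cd300a, Cd33 or the Lilrb receptors, carry a motif called ITIM that recruits phosphatases such as Ptpn6. Scavenger receptors take up modified lipoproteins and debris, and the kinases Axl and Mertk bind dying cells through the bridging proteins Gas6 and Pros1. In the brain, microglia, macrophages of the borders and blood-derived myeloid cells are the main cells known to carry them.

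Values are RPKM, read numbers scaled to gene length and to the mapped reads of the library, as the authors deposited them. A side ratio is log2 of ipsilateral over contralateral RPKM after adding 1 RPKM to each, at 1 age; an age ratio is log2 of 21 over 13 months on 1 side, made alike. Adding 1 RPKM understates the change of low genes. Comparisons of 1 library with 1 library have no replicate and no test, and genes past 2-fold (a log2 ratio of 1) were counted. As a second summary, limma fitted the side effect over all 4 libraries with age as an added term, so that the ages served as repeats. That fit covered the 12160 genes whose average over the libraries was 1 RPKM or more and called genes at a Benjamini-Hochberg adjusted p under 0.05. The RPKM of a library summed to 388632 to 402100. Depth is unknown, since no read counts are given, so the precision of low values is unknown too. In all 4 libraries marker genes of neurons (612 to 879 summed RPKM over 4 genes) and oligodendrocytes (1668 to 2267 summed RPKM over 4 genes) were high.

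Receptors of this kind were higher on the side of the bleeding at both ages. At 21 months 27 of 75 had a side ratio of at least 1, against 3.93% of all genes of the table, and 0 had one of -1 or less, against 0.202%. At 13 months the counts were 31 of 75, against 5.24%, and 0, against 0.0616%. The 27 of 21 months were all among the 31 of 13 months; 3.32% of all genes passed at both ages. The median side ratio over all 75 was 0.38 at 21 months and 0.63 at 13 months, against medians over all genes of 0.04 and 0. In bulk tissue, more cells of a type and more RNA per cell cannot be told apart.

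Level decides how much these counts can show. Of the 75 genes 43 reached 1 RPKM in at least 1 library, and the other 32 stayed at or below 0.95 RPKM in all 4, where 1 RPKM added on both sides keeps a ratio small. Of these 32, 18 were higher ipsilaterally at both ages. The share of all genes this low was not counted, so nothing about the receptors is read from that number. A gene can also enter the 43 by being high on the ipsilateral side alone. The count was therefore repeated over the genes with at least 1 RPKM in both contralateral libraries, a filter that ignores the ipsilateral values. Of 23 such receptors, 12 passed 2-fold at 21 months (4.09% of all genes under the same filter) and 15 at 13 months (5.17%), with median side ratios of 1.63 and 2.12. Both ipsilateral libraries lay above both contralateral ones for 20 of these 23, against 32.1% of all genes under that filter, and for 58 of all 75, against 30.3%. In limma 40 of the 75 could be tested, and 33 of them rose and 0 fell, against 13.3% and 0.814% of all genes tested. Of the 40, 13 were under 1 RPKM in both contralateral libraries and so entered the fit through their ipsilateral values. Under the contralateral filter 17 of 23 rose in limma, against 10.9%. When low genes were kept in, limma called 0 of all 17853 genes and so 0 of the 75. Of the 75, 42 were higher at an unadjusted p under 0.05. The share of all genes at that unadjusted p was not counted.

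**Figure D1:**
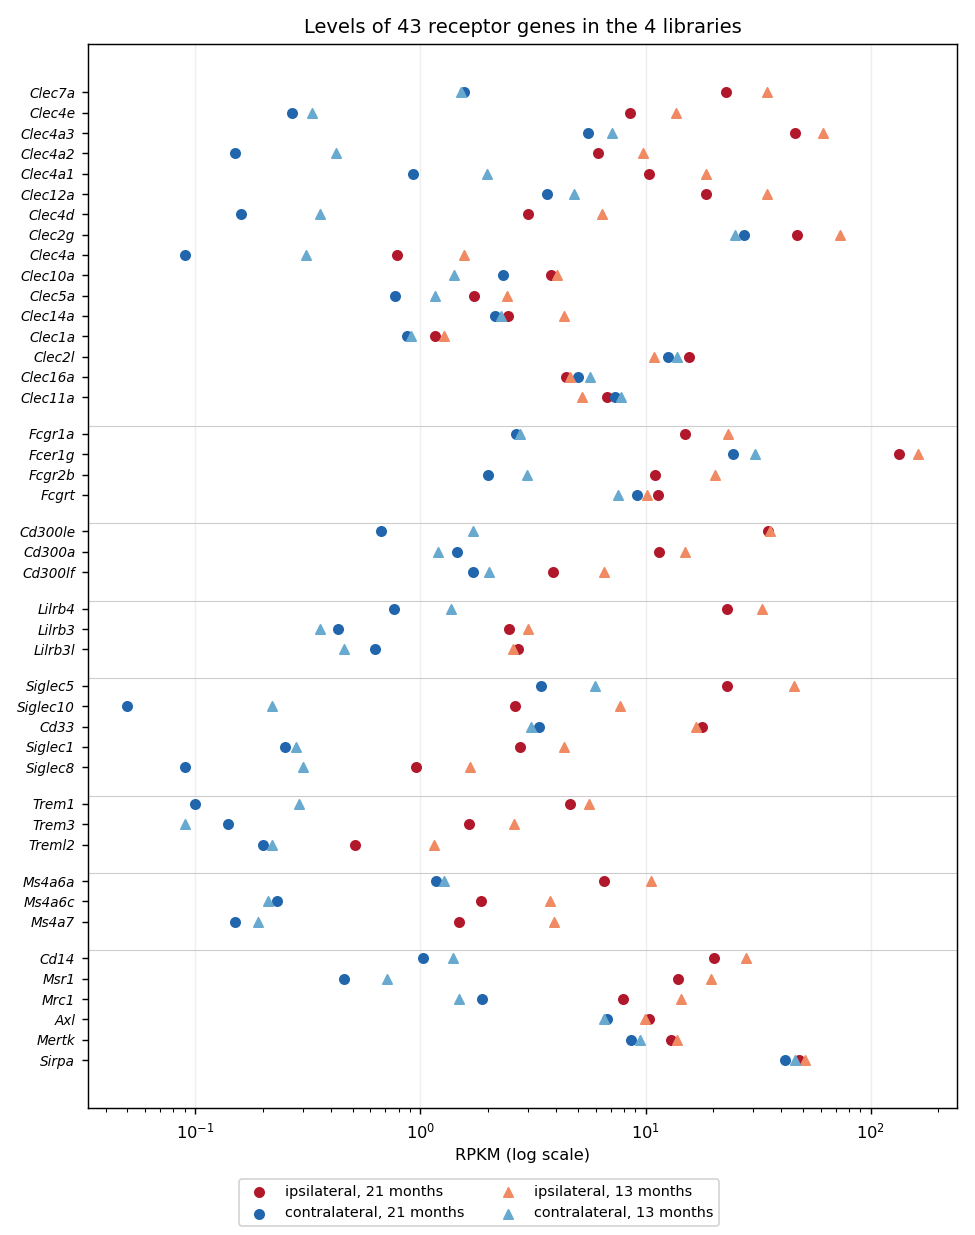
RPKM on a log axis of the 43 receptor genes that reached 1 RPKM in any library, 1 row a gene in the order of the 8 classes, with 1 point a library (circles 21 months, triangles 13 months, red and orange ipsilateral, dark and light blue contralateral). Both ipsilateral points lie right of both contralateral points for 40 of the 43, against 35% of all genes at that level; Clec2l, Clec16a and Clec11a are the exceptions.

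Among the C-type lectins, Clec7a and Clec4e, receptors that sense microbes and dead cells, had the largest mean side ratios, and 10 of 15 tested genes rose. Clec7a (dectin-1, ENSRNOG00000054251, chromosome 4), the receptor for beta-glucans of fungi, had 22.9 RPKM ipsilaterally and 1.57 RPKM contralaterally at 21 months, and 34.8 RPKM ipsilaterally and 1.52 RPKM contralaterally at 13 months, with side ratios of 3.21 at 21 months and 3.83 at 13 months. Clec4e (Mincle), an activating receptor for microbial glycolipids and for a nuclear protein set free by dead cells, had 8.53 RPKM ipsilaterally and 0.27 RPKM contralaterally at 21 months, and 13.7 RPKM ipsilaterally and 0.33 RPKM contralaterally at 13 months, with side ratios of 2.91 at 21 months and 3.46 at 13 months. Its partner Clec4d had 3 RPKM ipsilaterally and 0.16 RPKM contralaterally at 21 months, and 6.44 RPKM ipsilaterally and 0.36 RPKM contralaterally at 13 months, with side ratios of 1.79 at 21 months and 2.45 at 13 months. In limma these 3 genes rose by 3.52 ± 0.18, 3.19 ± 0.18 and 2.12 ± 0.18 (log2 change ± SE over 2 ipsilateral and 2 contralateral libraries).

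The Clec4a genes, rodent relatives of the dendritic cell immunoreceptor, are on chromosome 4 and are similar in sequence, so reads may have been shared among them and their single values are less certain. Clec4a3 was the highest of them, at 46.3 RPKM ipsilaterally and 5.56 RPKM contralaterally at 21 months, and 61.2 RPKM ipsilaterally and 7.13 RPKM contralaterally at 13 months. Clec4a1 had 10.4 RPKM ipsilaterally and 0.93 RPKM contralaterally at 21 months, and 18.6 RPKM ipsilaterally and 1.97 RPKM contralaterally at 13 months. Clec4a2 had 6.15 RPKM ipsilaterally and 0.15 RPKM contralaterally at 21 months, and 9.71 RPKM ipsilaterally and 0.42 RPKM contralaterally at 13 months. All 3 rose, with side ratios of 2.85 at 21 months and 2.94 at 13 months for Clec4a3, 2.56 at 21 months and 2.72 at 13 months for Clec4a1 and 2.64 at 21 months and 2.92 at 13 months for Clec4a2. Clec4a had 0.79 RPKM ipsilaterally and 0.09 RPKM contralaterally at 21 months, and 1.57 RPKM ipsilaterally and 0.31 RPKM contralaterally at 13 months, a mean too low for the limma filter. Clec12a, an inhibitory receptor of myeloid cells that binds uric acid crystals, rose as well, with 18.5 RPKM ipsilaterally and 3.66 RPKM contralaterally at 21 months, and 34.5 RPKM ipsilaterally and 4.8 RPKM contralaterally at 13 months and side ratios of 2.06 at 21 months and 2.61 at 13 months.

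Smaller side ratios were seen for 3 other lectins. Clec2g, in the mouse a ligand of receptors on natural killer cells and a member of a family of close copies, had 47.2 RPKM ipsilaterally and 27.3 RPKM contralaterally at 21 months, and 73.1 RPKM ipsilaterally and 24.9 RPKM contralaterally at 13 months, side ratios of 0.77 at 21 months and 1.51 at 13 months, so that it passed 2-fold at 13 months alone. Clec10a, a macrophage lectin for galactose-type sugars, had 3.81 RPKM ipsilaterally and 2.32 RPKM contralaterally at 21 months, and 4.06 RPKM ipsilaterally and 1.41 RPKM contralaterally at 13 months and also passed 2-fold at 13 months alone, with side ratios of 0.53 at 21 months and 1.07 at 13 months. Clec5a, an activating receptor that signals through Tyrobp, had 1.73 RPKM ipsilaterally and 0.77 RPKM contralaterally at 21 months, and 2.43 RPKM ipsilaterally and 1.16 RPKM contralaterally at 13 months. All 3 rose in limma, Clec10a by 0.80 ± 0.18 (adjusted p = 0.0025) and Clec5a by 0.65 ± 0.17 (adjusted p = 0.0097). The call of Clec5a was lost without the age term (adjusted p = 0.081). With libraries scaled to equal sums without mitochondrial genes, the 13 month side ratio of Clec10a was 0.997, just under 2-fold.

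Of the Clec genes tested 5 were not called, and several of these are known from cells other than myeloid ones. Clec14a, a protein of blood vessel endothelium, had 2.45 RPKM ipsilaterally and 2.15 RPKM contralaterally at 21 months, and 4.36 RPKM ipsilaterally and 2.29 RPKM contralaterally at 13 months, side ratios of 0.13 at 21 months and 0.70 at 13 months. Clec1a had 1.16 RPKM ipsilaterally and 0.87 RPKM contralaterally at 21 months, and 1.28 RPKM ipsilaterally and 0.91 RPKM contralaterally at 13 months. Clec2l, a lectin known from the brain in mammals, had 15.7 RPKM ipsilaterally and 12.6 RPKM contralaterally at 21 months, and 10.9 RPKM ipsilaterally and 13.8 RPKM contralaterally at 13 months. Its side ratio was 0.29 at 21 months and -0.31 at 13 months, so that the direction differed by age and the sides overlapped. Clec16a, an intracellular protein of autophagy, had 4.44 RPKM ipsilaterally and 5.01 RPKM contralaterally at 21 months, and 4.63 RPKM ipsilaterally and 5.65 RPKM contralaterally at 13 months. Clec11a, a secreted growth factor, had 6.75 RPKM ipsilaterally and 7.34 RPKM contralaterally at 21 months, and 5.23 RPKM ipsilaterally and 7.8 RPKM contralaterally at 13 months. For Clec16a and Clec11a both ipsilateral libraries were below both contralateral ones, with side ratios of -0.14 at 21 months and -0.24 at 13 months and of -0.11 at 21 months and -0.50 at 13 months. Endothelial marker genes gave sums of 10.5 RPKM ipsilaterally and 10.7 RPKM contralaterally at 21 months and of 12.5 and 9.5 RPKM on these sides at 13 months over 3 genes. The other 11 Clec genes stayed at or under 0.51 RPKM, the value of Clec9a, a receptor of dendritic cells, in the 13 month ipsilateral library.

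Among the Fc receptors, Fcer1g (ENSRNOG00000024159, chromosome 13) was the most abundant of all 75 genes on the ipsilateral side. It encodes the gamma chain that Fc receptors, Clec4e and others share as their signalling partner. Fcer1g had 134 RPKM ipsilaterally and 24.4 RPKM contralaterally at 21 months, and 162 RPKM ipsilaterally and 30.5 RPKM contralaterally at 13 months, with side ratios of 2.41 at 21 months and 2.37 at 13 months that were nearly alike at both ages. It made up 21.2% of the summed RPKM of the 75 genes ipsilaterally and 13.1% contralaterally at 21 months, and 19.1% and 14.8% on these sides at 13 months. Fcgr1a, the high-affinity activating receptor for IgG, had 14.95 RPKM ipsilaterally and 2.66 RPKM contralaterally at 21 months, and 23.2 RPKM ipsilaterally and 2.76 RPKM contralaterally at 13 months, side ratios of 2.12 at 21 months and 2.69 at 13 months. Fcgr2b, the inhibitory receptor for IgG, had 10.99 RPKM ipsilaterally and 2 RPKM contralaterally at 21 months, and 20.3 RPKM ipsilaterally and 2.97 RPKM contralaterally at 13 months, side ratios of 2.0 at 21 months and 2.42 at 13 months. The activating and the inhibitory receptor thus both rose, by 2.41 ± 0.18 and 2.21 ± 0.18 in limma. Fcgrt, the neonatal Fc receptor that recycles IgG and albumin and is known from endothelium, had 11.4 RPKM ipsilaterally and 9.13 RPKM contralaterally at 21 months, and 10.2 RPKM ipsilaterally and 7.56 RPKM contralaterally at 13 months and was not called (adjusted p = 0.24 in limma). Fcer2, the low-affinity IgE receptor of B cells, was at or under 0.10 RPKM.

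The largest means of the side ratios at both ages among the 75 genes were those of Cd300le and Lilrb4. Cd300le (ENSRNOG00000042825, chromosome 10) had 34.8 RPKM ipsilaterally and 0.67 RPKM contralaterally at 21 months, and 35.7 RPKM ipsilaterally and 1.72 RPKM contralaterally at 13 months. Its side ratios of 4.42 at 21 months and 3.75 at 13 months made it one of 8 among the 43 genes that reached 1 RPKM whose ratio was larger at 21 months; its contralateral value was lower at 21 than at 13 months. Cd300a, an inhibitory receptor that binds phospholipids of dying cells, had 11.5 RPKM ipsilaterally and 1.46 RPKM contralaterally at 21 months, and 14.9 RPKM ipsilaterally and 1.2 RPKM contralaterally at 13 months, side ratios of 2.34 at 21 months and 2.86 at 13 months. Cd300lf, which also binds such phospholipids in the mouse, had 3.87 RPKM ipsilaterally and 1.72 RPKM contralaterally at 21 months, and 6.56 RPKM ipsilaterally and 2.01 RPKM contralaterally at 13 months, with side ratios of 0.84 at 21 months and 1.33 at 13 months. All 3 rose in limma, Cd300le by 4.09 ± 0.18 (adjusted p = 9.8e-13). Cd300e, Cd300lb and Cd300lg stayed below 1 RPKM, with highest values of 0.95, 0.52 and 0.25 RPKM, each in the 13 month ipsilateral library.

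Lilrb4 (ENSRNOG00000027811, chromosome 1), an inhibitory receptor with ITIM motifs, had 23.02 RPKM ipsilaterally and 0.76 RPKM contralaterally at 21 months, and 32.99 RPKM ipsilaterally and 1.37 RPKM contralaterally at 13 months. Its side ratios of 3.77 at 21 months and 3.84 at 13 months were close at both ages, and limma gave a rise of 3.81 ± 0.17 (adjusted p = 8.9e-13). Lilrb3, another inhibitory receptor, had 2.47 RPKM ipsilaterally and 0.43 RPKM contralaterally at 21 months, and 3.01 RPKM ipsilaterally and 0.36 RPKM contralaterally at 13 months. Lilrb3l had 2.72 RPKM ipsilaterally and 0.63 RPKM contralaterally at 21 months, and 2.59 RPKM ipsilaterally and 0.46 RPKM contralaterally at 13 months. Both rose, by 1.42 ± 0.17 and 1.24 ± 0.17; as near copies they may share reads. Lilra5 was at or under 0.36 RPKM and Pilra at or under 0.05 RPKM.

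Siglecs bind sialic acid on the surface of cells, and most of them inhibit. Siglec5 had 22.9 RPKM ipsilaterally and 3.44 RPKM contralaterally at 21 months, and 45.9 RPKM ipsilaterally and 5.98 RPKM contralaterally at 13 months, with side ratios of 2.43 at 21 months and 2.75 at 13 months. Cd33 had 17.9 RPKM ipsilaterally and 3.38 RPKM contralaterally at 21 months, and 16.8 RPKM ipsilaterally and 3.1 RPKM contralaterally at 13 months, and its side ratios of 2.11 at 21 months and 2.12 at 13 months were almost equal. Siglec1 (sialoadhesin), a macrophage receptor without an inhibitory motif, had 2.78 RPKM ipsilaterally and 0.25 RPKM contralaterally at 21 months, and 4.34 RPKM ipsilaterally and 0.28 RPKM contralaterally at 13 months, side ratios of 1.60 at 21 months and 2.06 at 13 months. Siglec10 had 2.64 RPKM ipsilaterally and 0.05 RPKM contralaterally at 21 months, and 7.71 RPKM ipsilaterally and 0.22 RPKM contralaterally at 13 months. Its side ratio of 1.79 at 21 months against 2.84 at 13 months was the one among the 75 that differed by more than 1 between the ages, where 0.543% of all genes had a ratio smaller by as much at 21 months. This rests on the 1 RPKM added to low contralateral values: with 0.1 RPKM added the ratios were 4.19 at 21 months and 4.61 at 13 months, and the plain folds were 52.8 at 21 months and 35.0 at 13 months, the opposite order. All 4 rose in limma, and Siglec8, at 0.96 RPKM ipsilaterally and 0.09 RPKM contralaterally at 21 months, and 1.67 RPKM ipsilaterally and 0.3 RPKM contralaterally at 13 months, had too low a mean to be tested. Siglec15, of osteoclasts, and Siglech, of plasmacytoid dendritic cells and, in the mouse, microglia, were at or under 0.34 and 0.20 RPKM.

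Trem1, which amplifies inflammatory signals of neutrophils and monocytes through Tyrobp, had 4.61 RPKM ipsilaterally and 0.1 RPKM contralaterally at 21 months, and 5.59 RPKM ipsilaterally and 0.29 RPKM contralaterally at 13 months. Its side ratios were 2.35 at 21 months and 2.35 at 13 months. Trem3, in the mouse an activating receptor of macrophages, had 1.65 RPKM ipsilaterally and 0.14 RPKM contralaterally at 21 months, and 2.6 RPKM ipsilaterally and 0.09 RPKM contralaterally at 13 months, side ratios of 1.22 at 21 months and 1.72 at 13 months. Both rose in limma. Treml2 had 0.51 RPKM ipsilaterally and 0.2 RPKM contralaterally at 21 months, and 1.15 RPKM ipsilaterally and 0.22 RPKM contralaterally at 13 months and was not tested, and Treml4 was at or under 0.13 RPKM. Treml1, known from platelets, had 0.32 RPKM ipsilaterally and 0.26 RPKM contralaterally at 21 months, and 0.18 RPKM ipsilaterally and 0.53 RPKM contralaterally at 13 months.

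The Ms4a genes encode membrane proteins that cross the membrane several times. Of 12 genes 3 reached 1 RPKM, and the other 9 stayed at or under 0.91 RPKM. Ms4a6a had 6.57 RPKM ipsilaterally and 1.17 RPKM contralaterally at 21 months, and 10.6 RPKM ipsilaterally and 1.28 RPKM contralaterally at 13 months. Ms4a6c had 1.86 RPKM ipsilaterally and 0.23 RPKM contralaterally at 21 months, and 3.78 RPKM ipsilaterally and 0.21 RPKM contralaterally at 13 months. Ms4a7 had 1.48 RPKM ipsilaterally and 0.15 RPKM contralaterally at 21 months, and 3.92 RPKM ipsilaterally and 0.19 RPKM contralaterally at 13 months. All 3 rose, and all 3 had smaller side ratios at 21 months, with 1.80 at 21 months and 2.35 at 13 months for Ms4a6a, 1.22 at 21 months and 1.98 at 13 months for Ms4a6c and 1.11 at 21 months and 2.05 at 13 months for Ms4a7. Ms4a1, which encodes CD20 of B cells, had 0.35 RPKM ipsilaterally and 0.07 RPKM contralaterally at 21 months, and 0.91 RPKM ipsilaterally and 0.2 RPKM contralaterally at 13 months. Ms4a2, the beta chain of the IgE receptor of mast cells, was at or under 0.14 RPKM. The B cell marker list, 6 genes, summed to 2.40 RPKM ipsilaterally and 0.53 RPKM contralaterally at 21 months and to 3.51 and 0.80 RPKM on these sides at 13 months. Of 8 mast cell genes, Cpa3, Tpsab1, Tpsb2, Cma1 and Mcpt2 were at or under 0.10 RPKM or listed at 0.

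In the scavenger and engulfment class 5 of 6 tested genes rose. Cd14, Msr1 and Mrc1 had larger side ratios than the kinases Axl and Mertk, a difference that was not tested. Cd14 (ENSRNOG00000017819, chromosome 18), the co-receptor that hands endotoxin to Tlr4, had 20.1 RPKM ipsilaterally and 1.03 RPKM contralaterally at 21 months, and 27.9 RPKM ipsilaterally and 1.4 RPKM contralaterally at 13 months, side ratios of 3.38 at 21 months and 3.59 at 13 months. Msr1 (ENSRNOG00000012779, chromosome 16), scavenger receptor A of macrophages, had 13.9 RPKM ipsilaterally and 0.46 RPKM contralaterally at 21 months, and 19.6 RPKM ipsilaterally and 0.71 RPKM contralaterally at 13 months, side ratios of 3.35 at 21 months and 3.59 at 13 months. The mannose receptor gene Mrc1 had 7.92 RPKM ipsilaterally and 1.88 RPKM contralaterally at 21 months, and 14.4 RPKM ipsilaterally and 1.48 RPKM contralaterally at 13 months. Its side ratio of 1.63 at 21 months was well below that of 2.63 at 13 months, with a lower ipsilateral and a higher contralateral value at 21 months. Axl had 10.4 RPKM ipsilaterally and 6.73 RPKM contralaterally at 21 months, and 9.95 RPKM ipsilaterally and 6.53 RPKM contralaterally at 13 months. Mertk had 13.01 RPKM ipsilaterally and 8.6 RPKM contralaterally at 21 months, and 13.9 RPKM ipsilaterally and 9.41 RPKM contralaterally at 13 months. These kinases rose by 0.55 ± 0.17 (adjusted p = 0.03) and 0.53 ± 0.17 (adjusted p = 0.038) in limma, calls that were lost for both when libraries were scaled to equal sums without mitochondrial genes (adjusted p = 0.11 and 0.13). Mertk was also lost with median-ratio scaling (adjusted p = 0.058) and with 0.1 RPKM added (adjusted p = 0.064). Sirpa, which binds the signal Cd47 on healthy cells and is also known from neurons, was the most abundant of the 75 contralaterally, at 48.3 RPKM ipsilaterally and 41.5 RPKM contralaterally at 21 months, and 51.2 RPKM ipsilaterally and 46.1 RPKM contralaterally at 13 months, and was not called (adjusted p = 0.58). Marco and Cd36 were low throughout, at or under 0.44 and 0.12 RPKM.

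**Figure D2:**
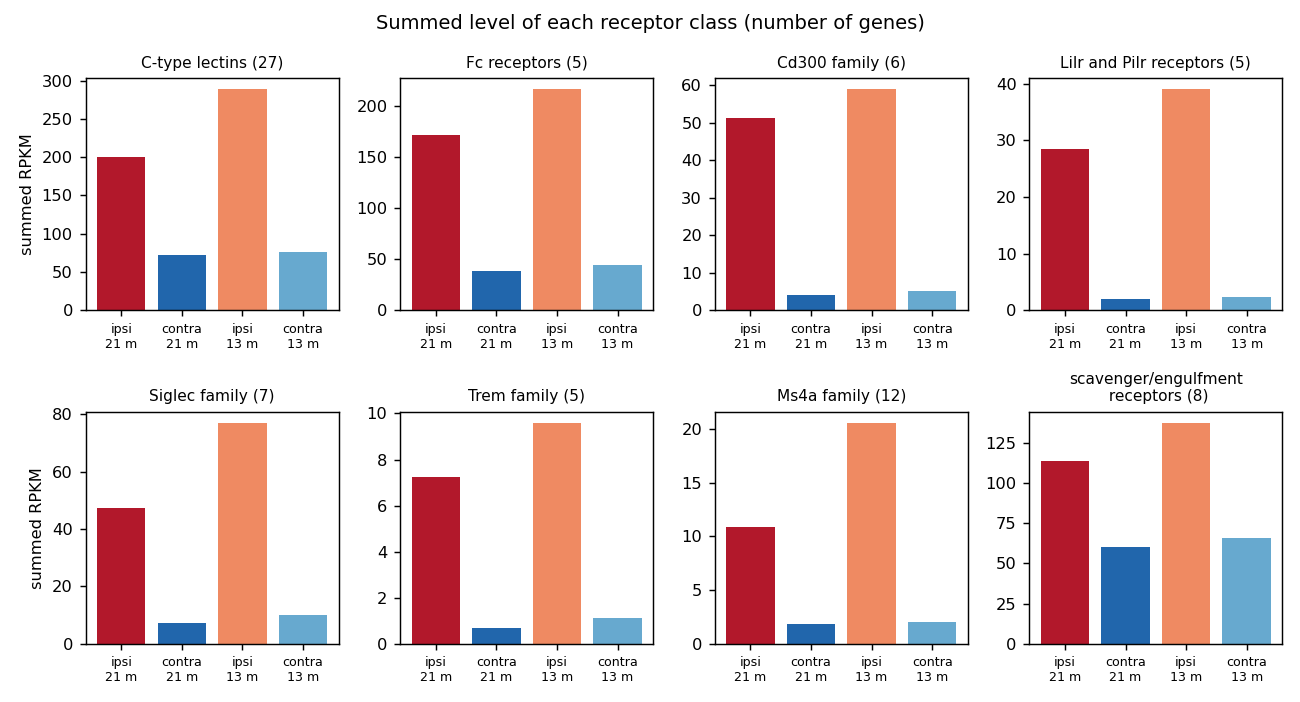
Summed RPKM of all genes of each of the 8 classes in the 4 libraries, with 1 panel a class and its own axis from 0. Each class is higher ipsilaterally at both ages, from 1.89-fold in the scavenger and engulfment receptors to 14.4-fold in the Lilr and Pilr receptors at 21 months.

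The summed levels set these classes side by side. All 75 genes together came to 631 RPKM ipsilaterally and 186 RPKM contralaterally at 21 months, a ratio of 3.39, and to 847 and 206 RPKM on these sides at 13 months, a ratio of 4.12. Without Fcer1g, Sirpa and Clec2g the sums were 401.98 RPKM ipsilaterally and 92.8 RPKM contralaterally at 21 months and 560.2 RPKM ipsilaterally and 104 RPKM contralaterally at 13 months. At 21 months the sums were higher ipsilaterally by 14.4-fold for Lilr and Pilr, 12.5-fold for Cd300, 10.3-fold for Trem, 6.55-fold for Siglec, 5.76-fold for Ms4a, 4.47-fold for Fc receptors, 2.80-fold for C-type lectins and 1.89-fold for the scavenger and engulfment class. At 13 months the same classes stood at 16.8, 11.2, 8.49, 7.77, 10.0, 4.93, 3.81 and 2.09-fold. C-type lectins and the scavenger and engulfment class made up 31.8% and 18.0% of the ipsilateral sum at 21 months, and 38.5% and 32.4% of the contralateral one. Sums are led by their most abundant genes, Sirpa in the last class and Fcer1g among the Fc receptors.

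**Figure D3:**
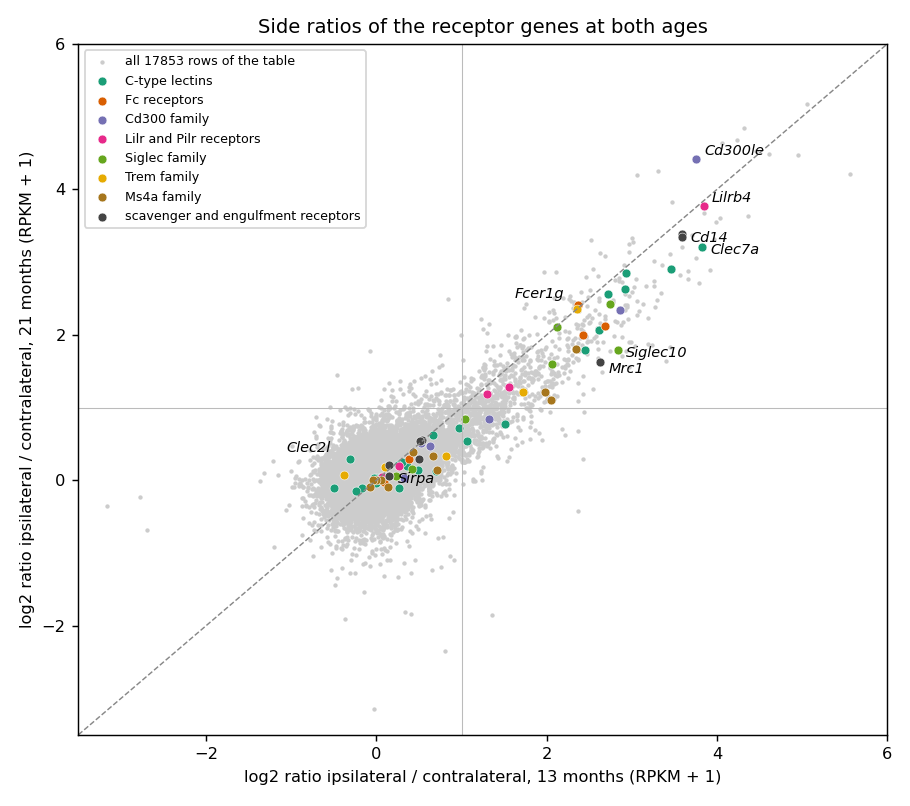
Side ratios (log2, 1 RPKM added) with those of 21 months drawn upwards and those of 13 months drawn to the right, for all 17853 genes in grey and the 75 receptor genes coloured by class. Most receptors past 1 lie under the dashed line of equal ratios, Siglec10 and Mrc1 far under it, while Cd300le lies above it.

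Promoter sequence was looked at because so many of these genes were higher together. RefSeq windows from 250 bases before to 50 after the gene start (build GRCr8) were matched by symbol and chromosome for 56 of the 75, 1 window a gene. The motif GAGGAA, the core of the sites of the myeloid transcription factor PU.1, was searched on both strands. It was present in 34 of 56 windows (60.7%), against 27.5% of the windows of all 27457 gene symbols. Among the receptors at least 2-fold higher at both ages it was in 14 of 20, and among other receptors that reached 1 RPKM in 8 of 13. The motif was thus frequent in both sets. TGANTCA, the AP-1 site, was in 4 of 56 windows, against 7.33% of all. TTGCNNAA, a form of the C/EBP site, was in 12 of 56, against 10.5%. A form of the interferon-stimulated response element was in 5 of 56, against 3.77%. These motifs were searched on both strands and do not contain each other. A match to letters is no evidence of binding. The windows of the matched receptors with the 4 largest mean side ratios follow, with that of Clec2l, the matched gene that reached 1 RPKM and had the mean side ratio nearest 0. GAGGAA, or TTCCTC where it lies on the other strand, is in capitals.
Lilrb4 (chr1:78853203-78853502, minus strand, written 5′ to 3′): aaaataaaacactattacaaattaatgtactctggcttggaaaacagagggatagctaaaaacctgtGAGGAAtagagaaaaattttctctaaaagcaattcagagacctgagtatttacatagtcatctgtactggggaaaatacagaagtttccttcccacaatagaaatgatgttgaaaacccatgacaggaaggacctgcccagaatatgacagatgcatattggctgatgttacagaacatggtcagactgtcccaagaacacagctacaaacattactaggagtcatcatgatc
Clec7a (chr4:164599778-164600077, minus strand, written 5′ to 3′): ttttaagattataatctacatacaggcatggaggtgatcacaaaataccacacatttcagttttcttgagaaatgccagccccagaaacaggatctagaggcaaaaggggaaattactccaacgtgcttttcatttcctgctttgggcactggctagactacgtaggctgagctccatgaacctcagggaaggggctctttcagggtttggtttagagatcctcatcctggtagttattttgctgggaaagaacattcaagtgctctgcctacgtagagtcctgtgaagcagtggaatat
Cd14 (chr18:28611109-28611408, minus strand, written 5′ to 3′): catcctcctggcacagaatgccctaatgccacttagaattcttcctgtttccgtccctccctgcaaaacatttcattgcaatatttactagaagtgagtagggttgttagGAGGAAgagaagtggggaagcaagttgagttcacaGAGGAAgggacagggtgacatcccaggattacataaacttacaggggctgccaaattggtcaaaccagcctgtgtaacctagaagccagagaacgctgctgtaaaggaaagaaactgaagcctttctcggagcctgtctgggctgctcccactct
Clec4e (chr4:158298418-158298717, minus strand, written 5′ to 3′): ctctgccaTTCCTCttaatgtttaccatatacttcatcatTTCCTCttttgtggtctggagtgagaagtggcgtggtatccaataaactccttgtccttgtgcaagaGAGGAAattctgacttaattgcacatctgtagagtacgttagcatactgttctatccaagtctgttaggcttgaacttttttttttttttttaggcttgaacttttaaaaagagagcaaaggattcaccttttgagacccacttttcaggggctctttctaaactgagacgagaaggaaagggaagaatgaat
Clec2l (chr4:68364910-68365209, plus strand, written 5′ to 3′): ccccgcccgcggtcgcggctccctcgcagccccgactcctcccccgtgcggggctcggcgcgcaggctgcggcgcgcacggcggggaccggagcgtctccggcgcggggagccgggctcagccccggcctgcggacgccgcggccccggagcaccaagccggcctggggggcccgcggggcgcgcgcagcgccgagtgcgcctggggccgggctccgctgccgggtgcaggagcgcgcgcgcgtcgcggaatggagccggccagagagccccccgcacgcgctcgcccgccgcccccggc
Clec7a and Clec2l had no match in the window. Lilrb4 had 1, Cd14 had 2 and Clec4e had 3, of which 2 were on the other strand.

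Age was compared on each side, 21 over 13 months. Most of these receptors were lower in the older ipsilateral library. Among the 43 that reached 1 RPKM, 37 were lower and 6 higher at 21 months ipsilaterally, where 46.2% of all genes at that level were lower. Contralaterally 31 were lower, against 57.9%. Their median age ratio was -0.46 ipsilaterally, against 0.03 over all such genes, and -0.12 contralaterally, against -0.03. An age ratio of -0.3 or lower was seen for 28 of the 43 ipsilaterally, against 15.6% of all such genes, and for 9 contralaterally, against 3.55%. A gene can enter the 43 through its 13 month ipsilateral value alone, as Clec4a, Siglec8 and Treml2 did. Such a gene is lower at 21 months on that side by construction. Under the contralateral filter, which ignores ipsilateral values, 18 of 23 were lower ipsilaterally, against 44.6%. An ipsilateral age ratio of -0.3 or lower was seen for 13 of these 23, against 14%, and their median was -0.40, against 0.04. A 2-fold change was rare. Ipsilaterally 1 of 75 was lower by as much, against 0.471% of all genes, and 0 were higher, against 0.241%. Contralaterally 0 were lower, against 0.112%, and 0 higher, against 0.157%.

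Siglec10 was the gene past 2-fold, at 2.64 RPKM at 21 months and 7.71 RPKM at 13 months, an ipsilateral age ratio of -1.26. Ms4a7 followed with 1.48 RPKM at 21 months and 3.92 RPKM at 13 months, an age ratio of -0.99. Siglec5, at 22.9 RPKM at 21 months and 45.9 RPKM at 13 months, had -0.97. Contralaterally Siglec5 was lower as well, with 3.44 RPKM at 21 months and 5.98 RPKM at 13 months. Clec4d (-0.90), Clec12a (-0.87), Fcgr2b (-0.83), Mrc1 (-0.78) and Clec4a1 (-0.78) came next in ipsilateral age ratio. Some receptors were nearly level between the ages on the ipsilateral side. Cd300le had an ipsilateral age ratio of -0.03, Cd33 of 0.08, Axl of 0.06, Lilrb3l of 0.05 and Mertk of -0.08. Clec2l (0.48) and Clec11a (0.31) were the genes higher by at least 0.3 at 21 months, 2 of 43 against 18.5% of all genes at that level.

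**Figure D4:**
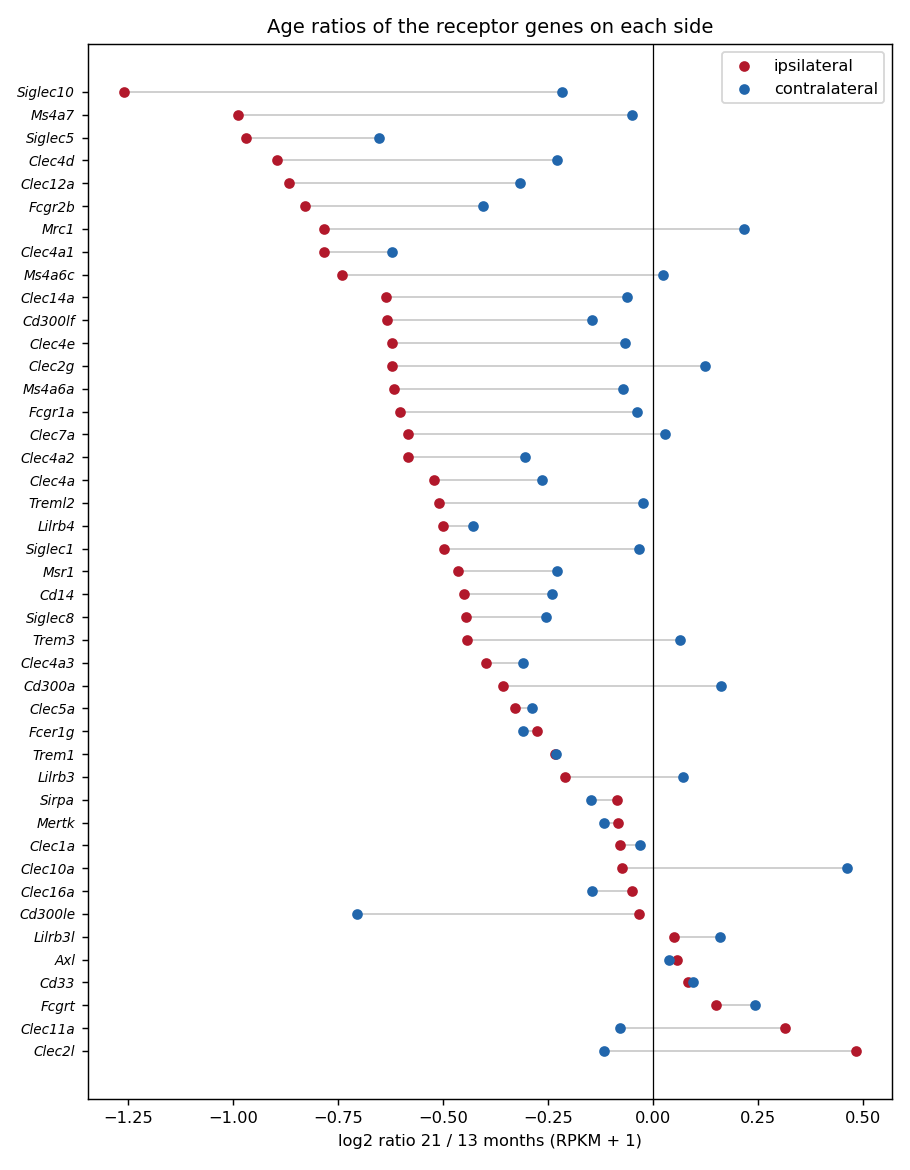
Log2 ratio of 21 to 13 months, after adding 1 RPKM, of the 43 receptor genes on the ipsilateral (red) and contralateral (blue) side, sorted by the ipsilateral ratio. Of the 43, 37 red points lie left of 0, down to -1.26 for Siglec10, while Clec2l has the highest red point at 0.48. Clec4a, Siglec8 and Treml2 reached 1 RPKM in the 13 month ipsilateral library alone.

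Contralaterally the largest age ratios downwards were those of Cd300le (-0.70), Siglec5 (-0.65), Clec4a1 (-0.62), Lilrb4 (-0.43) and Fcgr2b (-0.40). Clec10a was the gene higher by at least 0.3, with 2.32 RPKM at 21 months and 1.41 RPKM at 13 months, an age ratio of 0.46; 3.0% of all genes that reached 1 RPKM were higher by as much. The side ratio was smaller at 21 than at 13 months for 35 of the 43, against 44.9% of all genes at that level, and larger for 8, against 55.1%. A difference past 1 upwards was seen for 0 of 75, against 0.482% of all genes. The median of this difference was -0.28, against 0.04. The count depends on the amount added before taking logs. With 0.1 RPKM added, an alternative chosen after seeing the data, it was 27 of 43, against 44.4% of all genes at that level, and with none added 25 of 43, against 44.3%. The order turned under both for Clec4a, Clec4a1, Clec4a2, Clec5a, Lilrb4, Msr1, Siglec8 and Trem1, and for Clec4d and Siglec10 with none added. With median-ratio scaling it was 39 of 43, against 53.5%, with Axl, Fcer1g, Mertk and Sirpa turning the other way. Among the 23 genes with at least 1 RPKM in both contralateral libraries it was 16 with 1, 0.1 or no RPKM added, against 42.9% to 43.01% of all genes under that filter. That filter ignores ipsilateral values, whereas Clec4a, Siglec8 and Treml2 were among the 43 through their 13 month ipsilateral value alone. The side comparison and the age comparison share their libraries, so these are the same 4 values seen from another side.

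Marker sums of cell types differed in which way they moved. A list of 9 genes of monocytes and monocyte-derived macrophages summed to 118 RPKM ipsilaterally and 25.7 RPKM contralaterally at 21 months and to 162 and 25.96 RPKM on these sides at 13 months; Ccr2 was listed at 0 in the 21 month contralateral library. A list of 6 genes of homeostatic microglia summed to 150.2 RPKM ipsilaterally and 70.5 RPKM contralaterally at 21 months and to 131 and 72.9 RPKM on these sides at 13 months. On the ipsilateral side the monocyte sum at 21 months was thus 0.729 times that at 13 months and the microglia sum 1.14 times, while the sum of the 75 receptors was 0.745 times. The sum of 5 genes of border macrophages was 61.5 RPKM ipsilaterally and 8.05 RPKM contralaterally at 21 months and 79.8 and 7.66 RPKM on these sides at 13 months, led by Pf4, which platelets also make, and Folr2. The 9 neutrophil genes gave 37.5 RPKM ipsilaterally and 8.93 RPKM contralaterally at 21 months and 62.4 and 4.96 RPKM on these sides at 13 months, nearly all from S100a8, S100a9 and Csf3r, which monocytes share. The neutrophil granule gene Mpo was at or under 0.04 RPKM. Mmp8 had 0.90 RPKM ipsilaterally and 0.20 RPKM contralaterally at 21 months, and 0.87 and 0.08 RPKM on these sides at 13 months. Cxcr2 had 0.29, 0, 0.38 and 0.01 RPKM in the same order, and Retnlg 0.18, 0, 0.10 and 0.05 RPKM. Ngp was lower ipsilaterally at both ages and Camp at 21 months alone, both at or under 0.42 RPKM. The 8 genes of T and NK cells gave 2.94 RPKM ipsilaterally and 1.26 RPKM contralaterally at 21 months and 11.5 and 1.31 RPKM on these sides at 13 months. The 5 dendritic cell genes gave 4.01 RPKM ipsilaterally and 4.60 RPKM contralaterally at 21 months and 5.21 and 4.45 RPKM on these sides at 13 months, mostly Flt3. The 8 mast cell genes gave 6.53 RPKM ipsilaterally and 7.22 RPKM contralaterally at 21 months and 4.73 and 8.57 RPKM on these sides at 13 months, mostly Kit. The 4 neuron genes summed to 753 RPKM ipsilaterally and 807 RPKM contralaterally at 21 months and to 612 and 879 RPKM on these sides at 13 months. The 4 oligodendrocyte genes summed to 2267 RPKM ipsilaterally and 1924 RPKM contralaterally at 21 months and to 1668 and 2021 RPKM on these sides at 13 months. Ipsilaterally the sum at 21 months was thus 1.23 times that at 13 months for neurons and 1.36 times for oligodendrocytes. Platelet genes other than Pf4 were at or under 0.53 RPKM. Astrocyte sums over 4 genes were 329 RPKM ipsilaterally and 287 RPKM contralaterally at 21 months and 329.8 and 307 RPKM on these sides at 13 months. The part of these cell types in the receptor values was not tested.

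The partners of the receptors were described from lists of genes that are no members. Of 20 ITAM adapters and kinases 19 were tested in limma, and 16 rose and 0 fell, against 13.3% and 0.814% of all genes. Their median side ratio was 1.51 at 21 months and 1.64 at 13 months, against 0.04 and 0 over all genes. Vav1, an exchange factor downstream of Syk, had 16.4 RPKM ipsilaterally and 2.1 RPKM contralaterally at 21 months, and 28.1 RPKM ipsilaterally and 3.23 RPKM contralaterally at 13 months. Tyrobp had 52.6 RPKM ipsilaterally and 6.75 RPKM contralaterally at 21 months, and 52.2 RPKM ipsilaterally and 8.68 RPKM contralaterally at 13 months, a side ratio of 2.79 at 21 months and 2.46 at 13 months. Tyrobp was level between the ages ipsilaterally, whereas Vav1 had an ipsilateral age ratio of -0.74. Syk itself had 6.13 RPKM ipsilaterally and 1.41 RPKM contralaterally at 21 months, and 9.92 RPKM ipsilaterally and 1.59 RPKM contralaterally at 13 months and rose by 1.82 ± 0.18 in limma. Bcl10 (0.24 at 21 months and 0.46 at 13 months) and the widely expressed kinase Prkcd (0.04 at 21 months and 0.06 at 13 months) had the lowest side ratios of the list and were not called.

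The 7 effectors of ITIM motifs were all tested, and 5 rose and 0 fell, against 13.3% and 0.814% of all genes tested. Their median side ratios were 0.80 at 21 months and 1.19 at 13 months, against 0.04 and 0 over all genes. The phosphatase Ptpn6 had 47.9 RPKM ipsilaterally and 9.92 RPKM contralaterally at 21 months, and 72.9 RPKM ipsilaterally and 11.02 RPKM contralaterally at 13 months, a rise of 2.39 ± 0.18 in limma. Dok3 (1.35 at 21 months and 1.83 at 13 months) and Inpp5d (1.02 at 21 months and 1.31 at 13 months) followed in side ratio. Inppl1 (0.33 at 21 months and 0.59 at 13 months) and the broadly expressed phosphatase Ptpn11 (0.02 at 21 months and -0.31 at 13 months) were not called.

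Of the partners of Cd14, 10 of 13 listed genes were found in the table under these symbols. Of these, 6 were tested and 5 rose, against 13.3% of all genes tested. Their median side ratios were 0.54 at 21 months and 0.86 at 13 months, against 0.04 and 0 over all genes. Tlr2 had 7.73 RPKM ipsilaterally and 0.94 RPKM contralaterally at 21 months, and 15.5 RPKM ipsilaterally and 1.22 RPKM contralaterally at 13 months, and the adapter gene Myd88 had 7.69 RPKM ipsilaterally and 2.11 RPKM contralaterally at 21 months, and 7.17 RPKM ipsilaterally and 2.16 RPKM contralaterally at 13 months. Ticam2 (0.74 at 21 months and 0.93 at 13 months) followed. Tlr4, the receptor itself, was low at 1.05 RPKM ipsilaterally and 0.45 RPKM contralaterally at 21 months, and 1.56 RPKM ipsilaterally and 0.45 RPKM contralaterally at 13 months and was not tested. Traf6 (0.16 at 21 months and 0.18 at 13 months) was not tested either, and Irak1 (0.14 at 21 months and 0.01 at 13 months) was not called. Of 11 engulfment ligands and partners, all tested, 4 rose and 0 fell, against 13.3% and 0.814% of all genes tested. Their medians were 0.44 at 21 months and 0.33 at 13 months. Rac2, a GTPase of blood cells, had 21.8 RPKM ipsilaterally and 1.6 RPKM contralaterally at 21 months, and 25.4 RPKM ipsilaterally and 3.28 RPKM contralaterally at 13 months. Anxa1 had side ratios of 1.86 at 21 months and 3.23 at 13 months and Dock2 of 0.98 at 21 months and 1.41 at 13 months. The ligand gene Gas6 had 41.1 RPKM ipsilaterally and 37.6 RPKM contralaterally at 21 months, and 32.8 RPKM ipsilaterally and 33.9 RPKM contralaterally at 13 months, and Cd47 had 21.5 RPKM ipsilaterally and 15.6 RPKM contralaterally at 21 months, and 20.9 RPKM ipsilaterally and 16.4 RPKM contralaterally at 13 months; neither was called. Tyro3, a kinase of the same family as Axl and Mertk and known from neurons, had side ratios of -0.12 at 21 months and -0.36 at 13 months, and the bridging protein gene Mfge8 of -0.10 at 21 months and -0.69 at 13 months. Of 13 other scavenger receptors 10 were tested and 4 rose, against 13.3% of all genes tested. Their medians were 0.31 at 21 months and 0.49 at 13 months. Cd68 led this list, at 25.03 RPKM ipsilaterally and 1.03 RPKM contralaterally at 21 months, and 35.8 RPKM ipsilaterally and 1.56 RPKM contralaterally at 13 months. The scavenger and chemokine Cxcl16 (2.35 at 21 months and 2.57 at 13 months) and Olr1 (1.16 at 21 months and 1.41 at 13 months) followed. Colec12 (-0.02 at 21 months and 0.30 at 13 months) was not called, and Stab2 was at or under 0.04 RPKM.

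**Figure D5:**
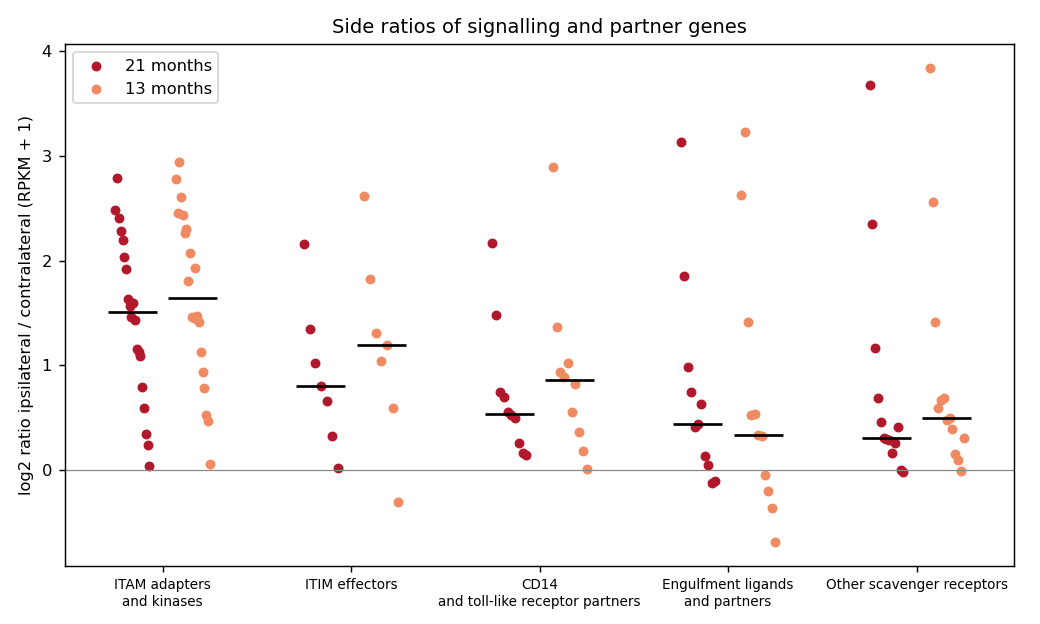
Side ratios (log2, 1 RPKM added) of the genes of 5 partner lists at 21 months (red) and 13 months (orange), 1 point a gene, with the median as a black bar. The list of ITAM adapters and kinases has the highest medians, 1.51 and 1.64. The lists of engulfment partners, ITIM effectors and other scavenger receptors each have points on both sides of 0.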

How the data were processed

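Per the labels' protocols, total RNA was treated with DNase, polyadenylated RNA was purified with oligo(dT) beads and directional libraries were made. Among the tools listed in the submitters' processing notes are TopHat2, edgeR and cutadapt; their versions and roles are not stated. The build listed there, GRCh38, is human, but identifiers in the table are rat Ensembl ones. The build is therefore not settled and no coordinates of the table were used. The authors deposited 1 table of RPKM values with 2 decimals; the lowest value above 0 was 0.01 RPKM in each library. Read counts were not used here, so depth is unknown.

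Ratios were log2 of RPKM plus 1, over all 17853 genes with no filter and no test (Python 3.11.15, pandas 2.3.3, numpy 2.4.6). limma 3.58.1 in R 4.3.3 fitted log2(RPKM + 1) on age and side with 1 residual degree of freedom. That residual is how far the side ratios of both ages differ. The errors rest largely on its spread pooled over genes, and the p-values do not measure the spread between animals. The fit was checked on simulated data. Members and lists were chosen with earlier results of these data known. Every member that reached 1 RPKM was named. Of the partner lists, the 3 genes with the highest and the 2 with the lowest smaller side ratio were named, with Tyrobp, Syk, Ptpn6, Tlr4, Gas6 and Cd47. 1 gene that matches the symbols and 1 of the partner genes this rule picks are not reported here.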

Additional observations from a re-analysis of the deposited data

Results flagged for a closer look

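Among the 43 receptor genes that reached 1 RPKM in any library, the ratio of 4 had opposite signs in the groups compared, with a size of at least 0.1 on the log2 scale in each. None of these differences was tested, since each value comes from 1 library against 1 library. Clec2l had a side ratio of 0.29 at 21 months and -0.31 at 13 months, and an age ratio of 0.48 ipsilaterally and -0.12 contralaterally. Clec2g had an age ratio of -0.62 ipsilaterally and 0.12 contralaterally. Cd300a had an age ratio of -0.36 ipsilaterally and 0.16 contralaterally. Mrc1 had an age ratio of -0.78 ipsilaterally and 0.22 contralaterally.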

How the results depend on the processing

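No side ratio past 2-fold changed sign under any alternative run, but the order of the side ratios of both ages turned for 8 of 43 genes with 0.1 RPKM added and for 10 with none added, so that it was smaller at 21 months for 27 and 25 of 43 rather than 35. With 0.1 RPKM added, 41 receptors passed 2-fold at 21 months (7.99% of all genes under that setting) and 48 at 13 months (9.34%). Treml1 was the 1 receptor lower past 2-fold at 13 months (-1.17, against 1.39%). The medians were 1.07 and 1.76. By age, 11 were lower past 2-fold at 21 months ipsilaterally (2.08%) and 6 contralaterally (1.18%). The side ratio was larger past 2-fold at 21 months for 2 (3.36%) and smaller past 2-fold for 8 (3.20%). The larger counts follow from the construction, since low genes then give larger ratios. With a mean of at least 1 RPKM the medians were 1.71 and 2.23, against 0.09 and 0.01 over all genes under that filter. Of the 40 receptors that passed it, 13 did so through their ipsilateral values, so the larger medians partly follow from the filter. With at least 1 RPKM in both contralateral libraries 12 of 23 passed at 21 months (4.09% of all genes under that filter). At 13 months 15 passed (5.17%), and 12 passed at both ages (3.33%), with medians of 1.63 and 2.12. Ipsilaterally 0 were lower past 2-fold by age (0.456%), and 0 had a side ratio smaller past 2-fold at 21 months (0.628%). Under that filter limma called 17 as higher (10.9%). Median-ratio scaling gave 3 lower past 2-fold by age ipsilaterally (0.616%) and 2 with a side ratio smaller past 2-fold at 21 months (0.706%). Equal sums without mitochondrial genes gave 2 with a side ratio smaller by as much (0.549%). Under that scaling 29 rather than 31 passed 2-fold at 13 months (4.65%), as Clec10a (0.997) and Siglec8 (0.991) fell just short. The cause was not tested. At 1.5-fold 16 were lower by age ipsilaterally (3.13%), 3 contralaterally (0.358%), and 2 had a larger (4.63%) and 7 a smaller (3.60%) side ratio at 21 months. With no filter limma called 0 of all 17853 genes and so 0 receptors. At an unadjusted p under 0.05 it had 42 receptors, and the share of all genes was not counted. No paired analysis was possible because the labels give no replicate numbers; the age term is the block, and limma with no replicate block by age called 32 rather than 33. Libraries could not be left out, since each group has 1 and 3 libraries leave no residual degrees of freedom.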

Other observations

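Many of these genes lie close together in the genome by family, so they are not independent. By the chromosomes given in the table, 24 of the 75 were on chromosome 1, where 9 passed 2-fold at 21 months and 10 at 13 months, against 4.96% and 5.71% of all genes of that chromosome. On chromosome 4 there were 21, of which 7 passed at 21 months and 8 at 13 months, against 4.85% and 6.89%. Chromosome 10 held 8, of which 2 passed at 21 months and 4 at 13 months, against 4.47% and 5.57%.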
